A study of Mus musculus with 6 samples.

Results

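The chemokines are small secreted proteins that steer leukocytes through tissue. The genes described here are chemokine ligands and chemokine receptors measured in infarcted mouse left ventricles. Members were taken by symbol: every gene named Ccl, Cxcl, Xcl or Cx3cl followed by a digit is a ligand, and every gene named Ccr, Cxcr, Xcr, Cx3cr or Ackr followed by a digit is a receptor. This gave 47 of the 15909 measured genes, of which 29 were ligands and 18 were receptors. Left ventricles were collected 4 days post injury (dpi) after surgical myocardial infarction (MI) by ligation of a coronary artery. In the CCN3 group (3 libraries), mice received recombinant human CCN3, a secreted matricellular protein, at 6 µg/kg by intraperitoneal injection. In the PBS group (3 libraries), infarcted mice received the vehicle by the same route, so that all 6 libraries come from injured hearts and no uninjured heart was compared. Per the labels, dosing was daily for 4 days, whereas the text of the study has it begin on the day after surgery and run for a shorter time. The methods of the study give adult C57/B6J mice for CCN3 dosing, while strain, age and sex are not on the labels. The comparison asked whether CCN3 alters the transcriptional response of the injured ventricle.

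Chemokines bind G protein-coupled receptors on leukocytes and are presented on glycosaminoglycans of the vessel wall. Inflammatory chemokines are induced after injury and recruit monocytes and neutrophils to the infarct, while homeostatic chemokines are made steadily by stromal and endothelial cells and place lymphocytes and dendritic cells. Atypical receptors (Ackr) bind chemokines without signalling through G proteins and remove or redistribute them.

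Values are log2 CPM, the log2 of read counts scaled to a common library size. The authors took out 2 factors of unwanted variation before deposit. Counting error cannot be given, since the values do not hold the read depth. The libraries summed to between 1001644 and 1031634 CPM and correlated with each other across genes at r between 0.989 and 0.998. The labels call the libraries biological replicates without saying that each is a separate animal, so SDs and p-values measure only what spread remained among these samples once the factors were gone. The study's own threshold was used. A gene passed in limma when its adjusted p was under 0.2, where a share of up to 0.2 of the calls is expected to be false if the model holds. Factors had been removed before the fit, so the actual share is not known. In total, 82 genes passed as higher and 172 as lower, and the lowest adjusted p of any gene was 0.110.

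Of the members, 3 passed: the receptors Cxcr6 and Ackr4 rose and the ligand Ccl21a fell in CCN3 treated ventricles. These were 6.38% of the 47 members, against 1.6% of all genes tested (0.515% higher and 1.08% lower). At an unadjusted p under 0.05 there were 12 members (4 higher and 8 lower), or 25.5%, against 10.6% of all genes (4.05% higher and 6.59% lower). Log2FC was negative for 28 of 47 members (19 of 29 ligands and 9 of 18 receptors), against 50.6% of all genes, and the median Log2FC was -0.17 for members, -0.20 for ligands and -0.00 for receptors, against -0.00 over all genes. The groups did not overlap for 14 members (29.8%), against 33.3% of all genes, so that the lack of overlap was no more frequent among chemokine genes than elsewhere. Without a mean-variance trend in limma 0 members passed, where 0.00629% of all genes did. With each library centred on its median 1 higher and 0 lower passed, where 1.09% of all genes did. Counts of members passed with 1 library left out ran between 0 (without PBS replicate 3) and 11 (without PBS replicate 1). In those fits 0.314% and 13.9% of all genes passed.

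**Figure D1:**
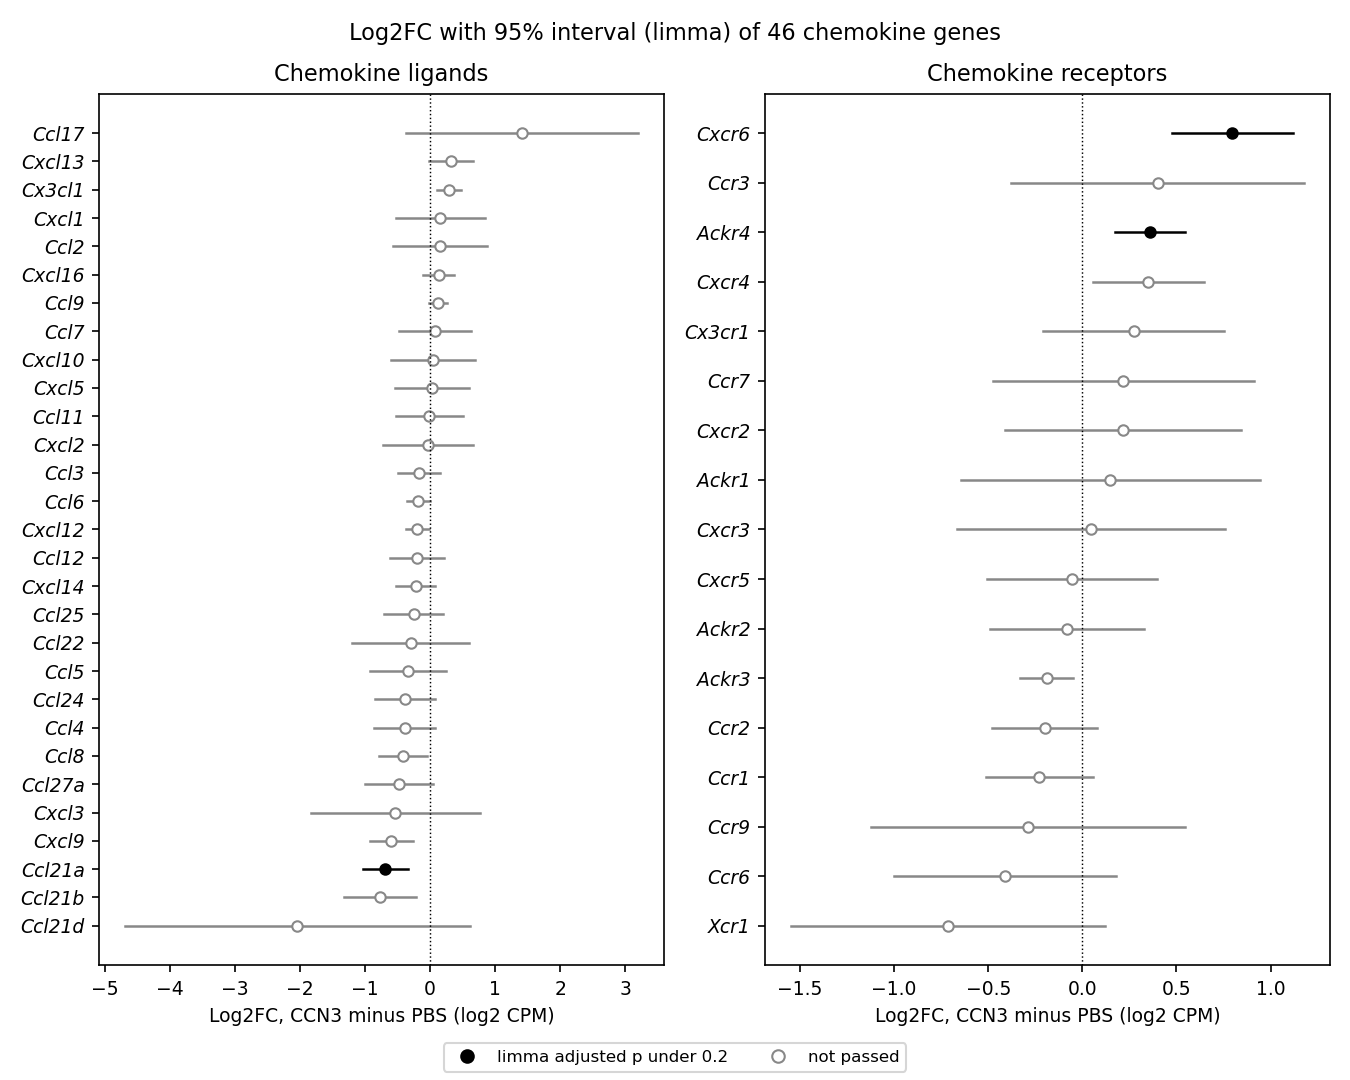
Log2FC (CCN3 minus PBS, log2 CPM) with its 95% interval from limma for the 29 ligands on the left and 17 receptors on the right, filled where the adjusted p is under 0.2. Of the 46 genes plotted, Cxcr6 and Ackr4 lie to the right of 0 and Ccl21a to the left as filled points, and the widest interval belongs to Ccl21d.

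Ccl21 is the homeostatic ligand of Ccr7, the receptor that brings dendritic cells and T cells to lymphatic vessels and lymph nodes, and it is made mainly by lymphatic endothelium and lymph node stroma. In the mouse it is encoded by several near-identical genes on chromosome 4, and 3 of them were measured. In GRCm39 they lie at chr4:42772859-42773995 on the minus strand (Ccl21a), chr4:42255693-42256825 on the plus strand (Ccl21b) and chr4:41903610-41904743 on the plus strand (Ccl21d). Each has a coding sequence of 399 bases. Ccl21b and Ccl21d had 0 coding differences between them, and each differed from Ccl21a at 2 bases (T84A and C194T, counted from 1 at the first base of the start codon, with the base of Ccl21a first). Over the whole transcript, 98.97% of bases of Ccl21b and 99.08% of Ccl21d matched Ccl21a, and 99.89% matched between Ccl21b and Ccl21d. Coding bases 71 to 210 are shown because they hold both differences, in capitals where a copy differs from Ccl21a, and because they show how little a short read has to tell the copies apart.
Ccl21a: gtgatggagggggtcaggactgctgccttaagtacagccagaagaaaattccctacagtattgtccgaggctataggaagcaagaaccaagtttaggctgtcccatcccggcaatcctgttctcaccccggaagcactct
Ccl21b: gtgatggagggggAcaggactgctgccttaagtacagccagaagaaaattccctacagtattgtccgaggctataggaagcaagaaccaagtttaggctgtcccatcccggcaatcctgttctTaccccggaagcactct
Ccl21d: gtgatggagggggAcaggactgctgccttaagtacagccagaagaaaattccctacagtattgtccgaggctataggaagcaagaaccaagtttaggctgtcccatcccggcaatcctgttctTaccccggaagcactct

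Ccl21a had 4.45, 4.78 and 4.61 log2 CPM in CCN3 treated ventricles, against 5.05, 5.52 and 5.34 log2 CPM in PBS treated ventricles. All 3 CCN3 libraries lay below all 3 PBS libraries. Ccl21a fell to 0.621 of the PBS level (Log2FC -0.69 ± 0.15 SE, 95% interval -1.04 to -0.34, adjusted p = 0.195 in limma). In bulk tissue, fewer cells of a type and less RNA per cell cannot be told apart. The call was lost without CCN3 replicate 3 (adjusted p = 0.257), without PBS replicate 3 (0.293), without a mean-variance trend (0.456) and with each library centred on its median (0.222). The sign held with each of the 6 libraries left out in turn, between -0.81 and -0.58.

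Ccl21b had 1.96, 2.66 and 2.59 log2 CPM in CCN3 treated ventricles, against 3.01, 3.45 and 3.08 log2 CPM in PBS treated ventricles. Its groups did not overlap either, but it did not pass (Log2FC -0.78 ± 0.23 SE, adjusted p = 0.304 in limma). Ccl21d had 2.60, -0.96 and -0.16 log2 CPM in CCN3 treated ventricles, against 3.90, 0.90 and 2.81 log2 CPM in PBS treated ventricles. Its groups overlapped and its values ranged more widely within each group than those of any other member (SD 1.87 in the CCN3 and 1.52 in the PBS group). The 3 copies did not move together within a group: Ccl21a and Ccl21b were lowest in replicate 1 of each group, and Ccl21d was highest there.

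Because the copies share nearly all of their sequence, their CPM were also added, a choice made after their values were seen. The sum was 31.9, 34.4 and 31.3 CPM in CCN3 treated ventricles, against 56.1, 58.6 and 55.9 CPM in PBS treated ventricles. The summed level averaged 5.02 ± 0.07 log2 CPM in the CCN3 group and 5.83 ± 0.04 log2 CPM in the PBS group (SD, n = 3 each), a spread smaller than that of Ccl21a alone (0.17 and 0.24). The sum fell to 0.571 of the PBS level (Log2FC -0.81 ± 0.06 SE, adjusted p = 0.0787 in limma). This fit kept as covariates the 2 directions along which single genes did not vary. The sum can vary along them, so that part of its spread is not in the SE or p. Its adjusted p is therefore not comparable with those of single genes. The values added here had been corrected gene by gene, and how reads were divided between the copies was not tested.

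**Figure D2:**
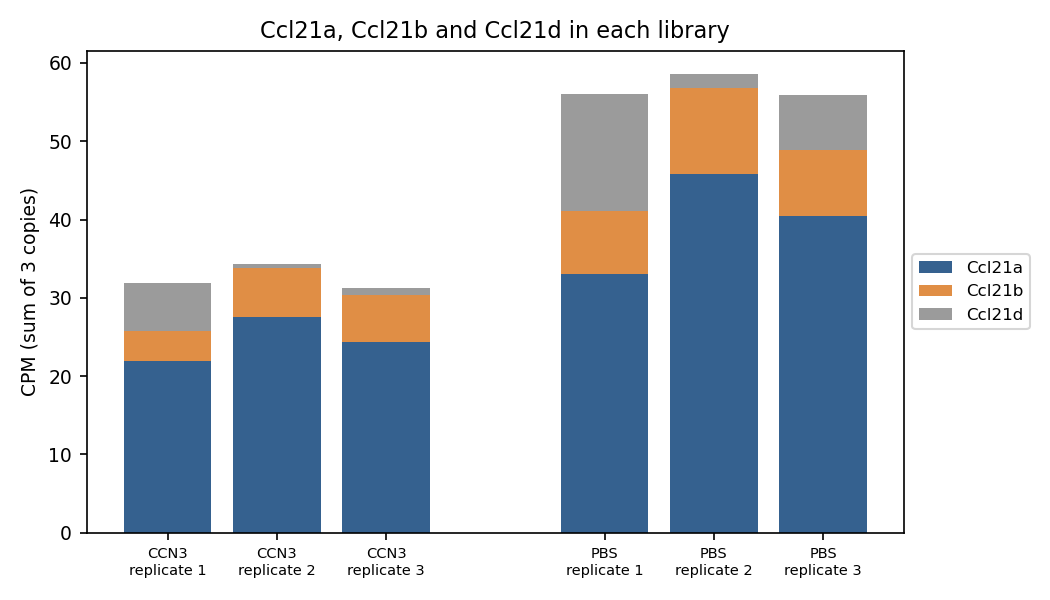
Stacked CPM of Ccl21a, Ccl21b and Ccl21d in each of the 3 CCN3 and 3 PBS libraries, on a linear axis from 0. The share of each copy differs between libraries of a group, while the column heights lie between 31.3 and 34.4 CPM in the CCN3 group and between 55.9 and 58.6 CPM in the PBS group.

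The receptor side of this axis was described by Ackr4 and Ccr7. Ackr4 encodes an atypical receptor that takes up and degrades Ccl21 and related homeostatic chemokines, and lies at chr9:103961356-104004132 on the minus strand of GRCm39. It had 4.48, 4.57 and 4.60 log2 CPM in CCN3 treated ventricles, against 4.23, 4.19 and 4.15 log2 CPM in PBS treated ventricles. The groups did not overlap, and Ackr4 rose 1.28-fold (Log2FC 0.36 ± 0.08 SE, 95% interval 0.17 to 0.55, adjusted p = 0.198 in limma). This call was the closest of the members' calls to the threshold: it was lost without CCN3 replicate 2 (adjusted p = 0.227), without CCN3 replicate 3 (0.237), without PBS replicate 3 (0.281), with libraries centred on their median (0.203), with 1 CPM added before log2 (0.203) and without a mean-variance trend (0.424).

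Ccr7, the signalling receptor, had 1.13, 0.67 and 1.03 log2 CPM in CCN3 treated ventricles, against 1.21, 0.35 and 0.61 log2 CPM in PBS treated ventricles. The groups overlapped (Log2FC 0.22, 95% interval -0.47 to 0.91, adjusted p = 0.848 in limma), and at this low level a change of the size seen for Ccl21a is within the interval when higher but not when lower. Markers of lymphatic endothelium, a list chosen after the values of Ccl21a were seen, summed to between 269 and 284 CPM in the CCN3 group and between 263 and 300 CPM in the PBS group. Of its 8 genes, all measured, 0 passed and 5 had a negative Log2FC, with a list median of -0.16. Prox1, Pdpn, Lyve1 and Flt4 had the highest means (6.22, 6.09, 5.68 and 5.35 log2 CPM over all libraries), so the sum rests mostly on them. Whether the listed genes are specific to lymphatic endothelium in this tissue was not tested. Prox1 had 6.26, 6.06 and 6.11 log2 CPM in CCN3 treated ventricles, against 6.39, 6.20 and 6.31 log2 CPM in PBS treated ventricles. Lyve1, which is shared with resident macrophages, had a Log2FC of 0.23, and Foxc2 (0.51, adjusted p = 0.298) and Mmrn1 (-0.55, 0.469) had the lowest p of the list. Log2FC was 0.15 for Pdpn, -0.16 for Prox1, -0.17 for Flt4, -0.39 for Reln and -0.19 for Tbx1. The part of these cells in the values of Ccl21a was not tested.

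Cxcr6 showed the largest Log2FC of the members that passed. It encodes the receptor for the transmembrane chemokine Cxcl16 and is carried by activated and tissue-resident T cells, natural killer T cells and innate lymphoid cells. It lies at chr9:123635534-123640825 on the plus strand of GRCm39. Cxcr6 had 2.41, 2.45 and 2.39 log2 CPM in CCN3 treated ventricles, against 1.54, 1.67 and 1.65 log2 CPM in PBS treated ventricles. The groups did not overlap, and the gap between them was wider than the spread within either. Cxcr6 rose 1.74-fold (Log2FC 0.80 ± 0.13 SE, 95% interval 0.48 to 1.12, adjusted p = 0.156 in limma). It passed in 5 of the 6 fits with a library left out, at Log2FC between 0.76 and 0.82, and was lost without PBS replicate 3 (adjusted p = 0.202) and without a mean-variance trend (0.382).

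Its ligand Cxcl16 had 6.13, 5.87 and 5.94 log2 CPM in CCN3 treated ventricles, against 5.97, 5.72 and 5.86 log2 CPM in PBS treated ventricles. These groups overlapped (Log2FC 0.13, 95% interval -0.11 to 0.37, adjusted p = 0.719 in limma). Marker lists of lymphocytes were read beside these values, and which cells carry Cxcr6 in this tissue was not tested. Natural killer (NK) cell markers had a negative Log2FC for 8 of 8 genes, with a median of -0.87, although 0 passed and their summed level was low, at 7.07, 5.66 and 6.90 CPM in the CCN3 group against 14.9, 9.41 and 10.6 CPM in the PBS group. Klrk1, an activating receptor of NK cells and CD8 T cells, came closest (Log2FC -0.84, adjusted p = 0.234), followed by the cytotoxic granule protease Gzmb (-1.03, 0.261). Of the T cell markers 8 of 10 were measured, 7 had a negative Log2FC, Thy1 a positive one (0.10), and 0 passed. The mean over all libraries was under 1 log2 CPM for 6 of 8 NK cell markers and 6 of 8 measured T cell markers. The co-receptors Cd4 (-0.48, adjusted p = 0.336) and Cd8a (-0.62, 0.439) had the lowest p of them. The T cell list summed to between 58.8 and 62.8 CPM in the CCN3 group and between 57.6 and 63.6 CPM in the PBS group. Most of this came from Thy1, which fibroblasts also express. Cd3e averaged -0.91 log2 CPM in the CCN3 and -0.61 log2 CPM in the PBS group. Markers of innate lymphoid and gamma delta T cells, a list chosen after the values were seen, had 7 of 10 genes measured, of which 0 passed and 1 had a positive Log2FC (Il7r, the receptor for interleukin 7, 0.22, adjusted p = 0.412). Il1rl1, the receptor for interleukin 33, came closest (-0.46, 0.334). The part of these cells in the values of Cxcr6 was not tested.

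**Figure D3:**
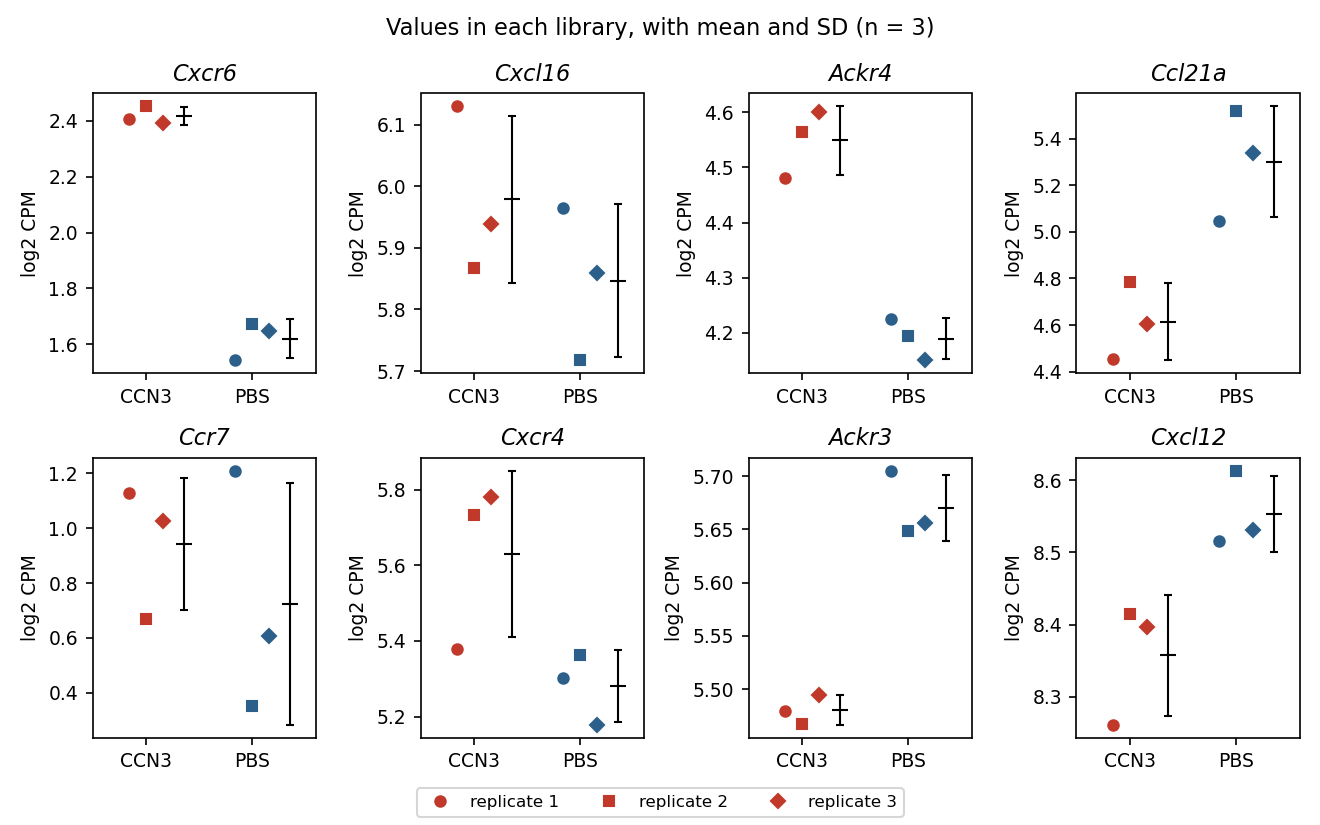
Values in log2 CPM of 8 chemokine genes in each CCN3 (red) and PBS (blue) library, with the mean and SD of each group (n = 3). Each panel has its own axis, which does not start at 0. The groups are apart for Cxcr6, Ackr4, Ccl21a, Cxcr4, Ackr3 and Cxcl12 and overlap for Cxcl16 and Ccr7. They are apart for 33.3% of all genes.

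Cxcl12 is a homeostatic ligand made by stromal and endothelial cells, which retains and recruits cells through Cxcr4, while the atypical receptor Ackr3 scavenges it. Cxcl12 had 8.26, 8.41 and 8.40 log2 CPM in CCN3 treated ventricles, against 8.52, 8.61 and 8.53 log2 CPM in PBS treated ventricles. The groups did not overlap and the difference was small (Log2FC -0.20 ± 0.07 SE, adjusted p = 0.405 in limma). Cxcr4 had 5.38, 5.73 and 5.78 log2 CPM in CCN3 treated ventricles, against 5.30, 5.36 and 5.18 log2 CPM in PBS treated ventricles. CCN3 replicate 1 lay only just above the PBS libraries, and Cxcr4 did not pass (Log2FC 0.35 ± 0.12 SE, adjusted p = 0.381). Ackr3 had 5.48, 5.47 and 5.50 log2 CPM in CCN3 treated ventricles, against 5.71, 5.65 and 5.66 log2 CPM in PBS treated ventricles. Its libraries were among the tightest within groups, but it did not pass (Log2FC -0.19 ± 0.06 SE, adjusted p = 0.331). Thus the 3 genes of this axis lacked overlap, as did 33.3% of all genes, with Cxcr4 above and Cxcl12 and Ackr3 below PBS, and 0 of them passed. Without CCN3 replicate 1, Cxcr4 (Log2FC 0.48, adjusted p = 0.113) and Ackr3 (-0.19, 0.159) passed, where 8.33% of all genes did. Without PBS replicate 1, where 13.9% of all genes passed, Ackr3 (-0.17, 0.131) and Cxcl12 (-0.21, 0.175) did so.

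Of the other homeostatic ligands, Cxcl13, which draws B cells through Cxcr5, was the only one with a positive Log2FC (0.32, adjusted p = 0.490). It had 5.61, 5.52 and 5.30 log2 CPM in CCN3 treated ventricles, against 4.89, 5.27 and 5.31 log2 CPM in PBS treated ventricles. The groups overlapped by a narrow margin, and Cxcr5 itself had a Log2FC of -0.05. Ccl25, Ccl27a and Cxcl14 had Log2FC of -0.25, -0.48 and -0.22, with adjusted p between 0.506 and 0.705. Over the 8 homeostatic ligands, the 3 copies of Ccl21 included, 7 had a negative Log2FC with a median of -0.37, and 1 passed. The copies share sequence and are not separate evidence.

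Cxcl9 and Cxcl10 are induced by interferon and recruit T and NK cells through Cxcr3. Cxcl9 was the member closest to passing without doing so. It had 3.52, 3.15 and 3.19 log2 CPM in CCN3 treated ventricles, against 3.97, 3.75 and 3.94 log2 CPM in PBS treated ventricles. The groups did not overlap (Log2FC -0.60 ± 0.14 SE, 95% interval -0.92 to -0.27, adjusted p = 0.213 in limma), and Cxcl9 passed without CCN3 replicate 1 (0.110), PBS replicate 1 (0.141) or PBS replicate 2 (0.147). In those fits 8.33%, 13.9% and 2.75% of all genes passed. Cxcl10 had 4.11, 3.42 and 3.16 log2 CPM in CCN3 treated ventricles, against 3.28, 3.45 and 3.81 log2 CPM in PBS treated ventricles, with a Log2FC of 0.05. CCN3 replicate 1 was the highest and CCN3 replicate 3 the lowest of all 6 libraries for this gene. The receptor Cxcr3 was near the lower end of the table, averaging -0.16 log2 CPM in the CCN3 and -0.20 log2 CPM in the PBS group.

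Beside Cxcl9, a list of 28 interferon-induced genes without chemokines had a negative Log2FC for 28 of 28 genes, with a median of -0.23 against -0.00 over all genes. Log2FC was negative for 50.6% of all genes. Of the listed genes 3 passed, all lower, where 1.08% of all genes passed as lower. The guanylate-binding protein genes Gbp4 (Log2FC -0.49 ± 0.08 SE, adjusted p = 0.145) and Gbp2 (-0.31 ± 0.06 SE, 0.169) fell, as did Irf7 (-0.50 ± 0.10 SE, 0.178), which encodes a transcription factor of the interferon response. Gbp4 had 5.22, 5.31 and 5.23 log2 CPM in CCN3 treated ventricles, against 5.63, 5.82 and 5.77 log2 CPM in PBS treated ventricles. The interferon-induced genes and Cxcl9 thus had the same sign, whereas the sign of Cxcl10 turned without CCN3 replicate 1 (-0.22) and without PBS replicate 1 (-0.07).

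The ligands that recruit neutrophils through Cxcr2 (Cxcl1, Cxcl2, Cxcl3 and Cxcl5) and the main monocyte attractants that act through Ccr2 (Ccl2, Ccl7 and Ccl12) had no common direction between the groups. CCN3 replicate 1 was the highest of the CCN3 libraries for each of these 7 genes. The share of all genes with this order was not counted. Within groups the values varied along only 2 of 4 dimensions, so this order is not read as particular to chemokines. On chromosome 5 these neutrophil ligands lie in the order Cxcl5, Cxcl3, Cxcl1 and Cxcl2, between 90907186 and 91053797 (GRCm39). The letters GGNNTTTCC, a form of the kappaB motif bound by NF-kB, were searched on either strand in the 250 bases before and 50 bases after the annotated start of each gene. They were present at 12 of 47 members (25.5%), among them Cxcl1, Cxcl2, Cxcl3, Cxcl5, Cxcl9, Cxcl10, Ccl2, Ccl5, Ccl9, Ccr3 and Cxcr5, against 5.78% of 21561 promoters of the same length. The letters were settled after other forms had been searched, so this contrast is not a test. The 4 neutrophil ligands were all among them, and these related genes may not be separate evidence. Whether the motif bears on the values of CCN3 replicate 1 was not tested. The bases from 120 to 21 before the start are shown in GRCm39, with the motif in capitals, because the 4 genes share it. Ccl7 and Ccl12, for which CCN3 replicate 1 was also the highest CCN3 library, had 0 matches. The windows are chr5:91038974-91039073 (Cxcl1), chr5:91051610-91051709 (Cxcl2), chr5:90933842-90933941 (Cxcl3) and chr5:90907117-90907216 (Cxcl5), all on the plus strand.
Cxcl1: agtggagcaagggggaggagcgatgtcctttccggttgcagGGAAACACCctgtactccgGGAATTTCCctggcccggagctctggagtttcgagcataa
Cxcl2: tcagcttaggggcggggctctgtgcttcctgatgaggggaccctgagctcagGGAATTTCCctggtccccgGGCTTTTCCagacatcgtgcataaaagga
Cxcl3: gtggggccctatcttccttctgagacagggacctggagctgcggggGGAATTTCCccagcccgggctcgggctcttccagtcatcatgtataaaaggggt
Cxcl5: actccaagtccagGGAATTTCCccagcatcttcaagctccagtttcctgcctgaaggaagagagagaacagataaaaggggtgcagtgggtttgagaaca

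Each of the 4 windows held the same form, GGAATTTCC. Cxcl1 and Cxcl2 had 2 matches each, of which the first in Cxcl1 was on the opposite strand. A match is a description of the letters and not of binding. The letters TTCNNNGAA (GAS, the site of STAT factors) were present at 7 of 47 members (14.9%) against 8.82% of promoters, and GAAANNGAA (part of the interferon response element, ISRE) also at 7 of 47 (14.9%), Cxcl9 and Cxcl10 among them, against 8.76%. Matches of different motifs overlapped in Ccl2 (kappaB with GAS) and in Ccl12 (GAS with ISRE).

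Cxcl1 had 3.25, 2.36 and 2.38 log2 CPM in CCN3 treated ventricles, against 2.64, 2.20 and 2.68 log2 CPM in PBS treated ventricles. Cxcl5 had 4.74, 3.97 and 3.98 log2 CPM in CCN3 treated ventricles, against 4.31, 3.96 and 4.36 log2 CPM in PBS treated ventricles. Ccl2, the chief attractant of inflammatory monocytes, had 5.44, 4.44 and 4.41 log2 CPM in CCN3 treated ventricles, against 4.68, 4.31 and 4.83 log2 CPM in PBS treated ventricles. In each of these genes CCN3 replicate 1 was the highest of all 6 libraries and the other CCN3 libraries lay within the range of the PBS libraries. Ccl7 had the same pattern, at 5.44, 4.68 and 4.68 log2 CPM in CCN3 treated ventricles, against 4.95, 4.62 and 5.02 log2 CPM in PBS treated ventricles. CCN3 replicate 1 exceeded the mean of the other CCN3 libraries by 1.01 for Ccl2, 0.76 for Ccl7, 0.88 for Cxcl1, 0.52 for Cxcl2, 1.16 for Cxcl3 and 0.77 for Cxcl5 on the log2 scale.

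With all libraries, Log2FC was 0.16 for Ccl2, 0.07 for Ccl7, 0.16 for Cxcl1, -0.03 for Cxcl2, -0.53 for Cxcl3 and 0.02 for Cxcl5, with adjusted p between 0.796 (Cxcl3) and 0.988 (Cxcl5). Without CCN3 replicate 1 the signs turned, to -0.18 for Ccl2, -0.18 for Ccl7, -0.14 for Cxcl1, -0.23 for Cxcl5 and -0.22 for Cxcl10, and none of these 5 passed. In that fit 35 of 47 members had a negative Log2FC, and Ccl12 passed as lower (-0.38, adjusted p = 0.193). The median Log2FC there was -0.19 for members and -0.00 over all genes, and 8.33% of all genes passed. The 95% intervals with all libraries, -0.56 to 0.88 for Ccl2 and -0.52 to 0.84 for Cxcl1, leave room for changes in either direction.

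Outside the family, some values were also highest in CCN3 replicate 1. Il6, an inflammatory cytokine, had 2.96, 1.54 and 1.77 log2 CPM in CCN3 treated ventricles, against 2.01, 0.97 and 1.73 log2 CPM in PBS treated ventricles. A list of NF-kB targets and cytokines, 19 of 21 measured, summed to 528, 468 and 449 CPM in the CCN3 group and 405, 411 and 436 CPM in the PBS group. Of these genes 15 had a positive Log2FC and 0 passed, with a median of 0.21. Tnfaip3, an inhibitor of NF-kB signalling (Log2FC 0.44, adjusted p = 0.262), and Ptgs2, an enzyme of prostaglandin synthesis (0.38, 0.279), had the lowest p. Neutrophil markers, by contrast, were not highest in that library, at 73.0, 88.5 and 69.3 CPM in the CCN3 group against 60.7, 101 and 89.8 CPM in the PBS group, and 0 of the 7 measured passed. Il1r2, a decoy receptor for interleukin 1 (Log2FC 0.27, adjusted p = 0.691), and Csf3r, the receptor for granulocyte colony-stimulating factor (-0.07, 0.771), had the lowest p of these. Cxcr2, the neutrophil receptor, had 2.26, 2.38 and 1.96 log2 CPM in CCN3 treated ventricles, against 1.46, 2.29 and 2.21 log2 CPM in PBS treated ventricles.

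**Figure D4:**
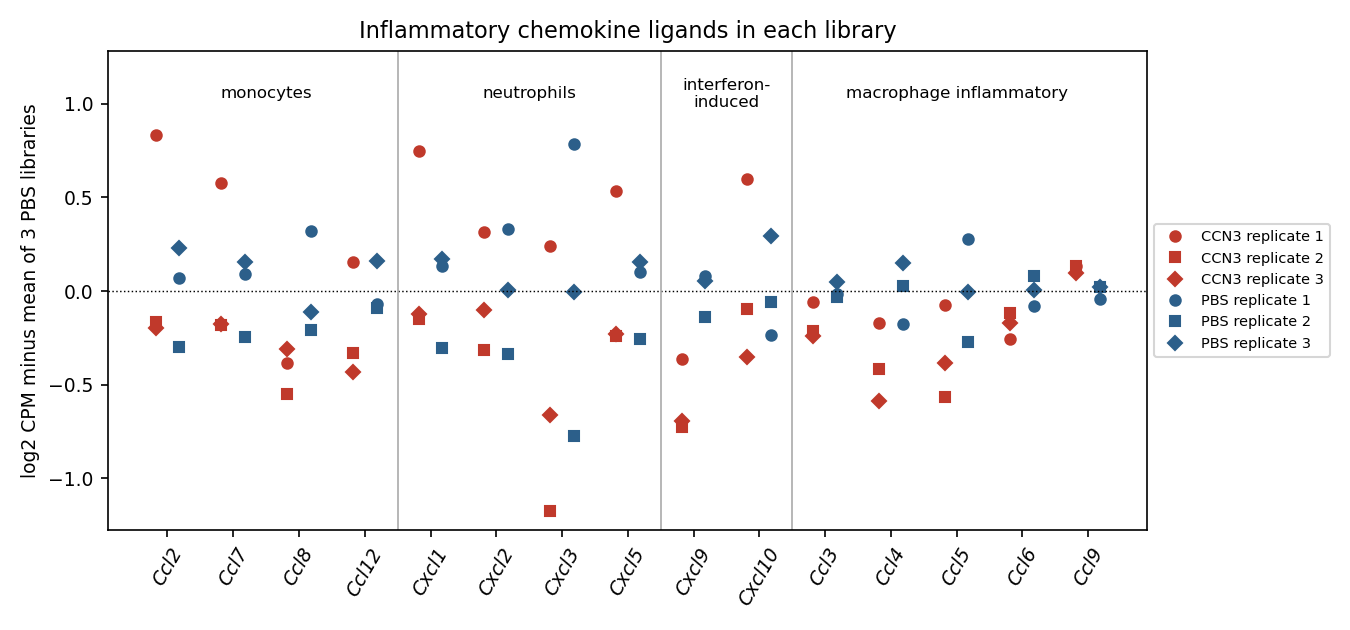
Level of 15 inflammatory chemokine ligands in each library, as log2 CPM minus the mean of the 3 PBS libraries, with CCN3 in red and PBS in blue. CCN3 replicate 1 (red circles) is the highest CCN3 library for 12 of the 15 ligands, all but Ccl6, Ccl8 and Ccl9, while all CCN3 points lie below the PBS points for Cxcl9, Ccl3, Ccl6 and Ccl8 and above them for Ccl9. How many of all genes share the first of these orders was not counted. Groups lacked overlap for 33.3% of all genes (18.2% with CCN3 below and 15.1% with CCN3 above).

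None of the remaining ligands of monocytes and macrophages passed. Ccl6 and Ccl9 are rodent chemokines that act through Ccr1. Ccl6 had 7.68, 7.82 and 7.77 log2 CPM in CCN3 treated ventricles, against 7.86, 8.02 and 7.94 log2 CPM in PBS treated ventricles (Log2FC -0.18, adjusted p = 0.446). Ccl9 had 7.24, 7.24 and 7.21 log2 CPM in CCN3 treated ventricles, against 7.07, 7.14 and 7.13 log2 CPM in PBS treated ventricles (Log2FC 0.12, adjusted p = 0.521). These neighbours on chromosome 11 thus had opposite signs, without overlap between groups and without passing. Groups lacked overlap for 33.3% of all genes. Ccl8 had 4.29, 4.12 and 4.37 log2 CPM in CCN3 treated ventricles, against 4.99, 4.47 and 4.57 log2 CPM in PBS treated ventricles (Log2FC -0.42, adjusted p = 0.416). Ccl3, Ccl4 and Ccl5, which attract macrophages and T cells, had Log2FC of -0.17, -0.39 and -0.34, with adjusted p between 0.548 and 0.733.

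Per kilobase of transcript, the scale on which genes can be ranked against each other, Ccl6 stood first among the members with 7.32 log2 CPM per kb. Cxcl12 followed with 5.95, Ccl9 with 5.58, Ccl8 with 5.43, Ccl7 with 5.21, Ccl21a with 5.17 and Cxcl13 with 5.12 log2 CPM per kb over all libraries. Among receptors Cxcr4 (4.59), Ccr2 (4.54), Ackr3 (3.95) and Ccr1 (3.82) were among the highest on the same scale. Cxcr4 and Ccr2 lay closer to each other than the libraries of the CCN3 group did for either gene, as did Ackr3 and Ccr1 compared with the libraries of Ccr1, and Ccl7, Ccl21a and Cxcl13 compared with those of Ccl21a, so that the order within these sets is not firm.

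The receptors Ccr2 and Ccr1 of monocytes and macrophages had a negative Log2FC and did not pass. Ccr2 marks recruited inflammatory monocytes and had 7.16, 6.82 and 6.89 log2 CPM in CCN3 treated ventricles, against 7.28, 7.01 and 7.19 log2 CPM in PBS treated ventricles. The groups overlapped (Log2FC -0.20, 95% interval -0.48 to 0.08, adjusted p = 0.613 in limma). Ccr1, found on monocytes, macrophages and neutrophils, had 5.26, 5.28 and 5.09 log2 CPM in CCN3 treated ventricles, against 5.21, 5.56 and 5.54 log2 CPM in PBS treated ventricles. PBS replicate 1 lay below 2 of the CCN3 libraries, so these groups overlapped as well (Log2FC -0.23, 95% interval -0.51 to 0.05, adjusted p = 0.565). Of the 7 Ccr receptors 5 had a negative Log2FC, with a median of -0.23, against 1 of the 5 Cxcr receptors, with a median of 0.22. The difference between these receptor classes was not tested.

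Among the recruited monocyte and macrophage markers, 8 of 12 had a negative Log2FC and 0 passed, and their sum ran from 4396 to 4598 CPM in the CCN3 group and from 4431 to 4546 CPM in the PBS group. The monocyte genes Plac8 (Log2FC -0.27, adjusted p = 0.215) and Ly6c2 (-0.70, 0.304) had the lowest p of this list. Cx3cr1, the receptor of patrolling monocytes and of many resident macrophages, had 5.85, 5.21 and 5.32 log2 CPM in CCN3 treated ventricles, against 5.39, 4.91 and 5.25 log2 CPM in PBS treated ventricles, and here too CCN3 replicate 1 was the highest library (Log2FC 0.27, adjusted p = 0.705). Resident macrophage markers had 0 of 8 genes passed, with Timd4 (-0.51, 0.238) and Folr2 (-0.18, 0.529) lowest in p.

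Cx3cl1, the transmembrane ligand of Cx3cr1 that is displayed by activated endothelium, had 4.27, 4.21 and 4.22 log2 CPM in CCN3 treated ventricles, against 3.97, 3.92 and 3.95 log2 CPM in PBS treated ventricles. The groups were well apart, with SDs of 0.03 in each (n = 3). Cx3cl1 nevertheless did not pass (Log2FC 0.29 ± 0.08 SE, 95% interval 0.10 to 0.47, adjusted p = 0.272 in limma, which draws the variance of each gene toward that of genes of similar level). It passed without CCN3 replicate 1 (Log2FC 0.27, adjusted p = 0.135) and without PBS replicate 1 (0.30, 0.0961), where 8.33% and 13.9% of all genes did. With Cxcl16, the only other transmembrane chemokine, it made a pair with positive Log2FC.

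The mean over all libraries was under 1 log2 CPM for 14 members (6 ligands and 8 receptors), and none of these passed. Ccl17, a ligand of Ccr4 made by dendritic cells and macrophages, had the largest positive Log2FC of all members (1.41 ± 0.75 SE, 95% interval -0.38 to 3.20, adjusted p = 0.575), but its libraries ranged from -1.80 to -0.24 log2 CPM in the CCN3 group and from -3.70 to -1.52 log2 CPM in the PBS group. Xcr1, a receptor of cross-presenting dendritic cells, had a Log2FC of -0.72 (adjusted p = 0.540). The eosinophil attractant Ccl11 had a Log2FC of -0.01, and its receptor Ccr3 0.40 (adjusted p = 0.736). The dendritic cell ligand Ccl22 and the receptors Ccr6, Ccr9 and Ackr1 had Log2FC between -0.41 and 0.15, with adjusted p between 0.629 and 0.923. Above that level, Ccl24, another ligand of Ccr3, averaged 1.54 log2 CPM over all libraries (Log2FC -0.38, adjusted p = 0.551) and the scavenging receptor Ackr2 2.22 log2 CPM (-0.08, 0.916).

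The receptor genes on chromosome 9 form a cluster, in which Ccr9, Cxcr6, Xcr1, Ccr1, Ccr3 and Ccr2 follow each other between the start of Ccr9 at 123507181 and the end of Ccr2 at 123913594 (GRCm39). Of these, Cxcr6 rose, Ccr3 had a positive Log2FC and the other 4 had a negative one. Among the 10 Ccl genes measured on chromosome 11, Ccl2, Ccl7 and Ccl9 had a positive Log2FC, and Ccl3, Ccl4, Ccl5, Ccl6, Ccl8, Ccl11 and Ccl12 a negative one. With all libraries none of the 10 passed, and without CCN3 replicate 1 Ccl2 and Ccl7 had a Log2FC of -0.18 each.

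Of 45 signalling genes downstream of the receptors, all measured, 1 passed as higher and 1 as lower, where 1.6% of all genes passed, with a median Log2FC of 0.01. In the CCN3 group 12 of them lay above and 3 below every PBS library, against 15.1% and 18.2% of all genes. Grk5, a kinase that phosphorylates and desensitises G protein-coupled receptors, had 6.40, 6.40 and 6.41 log2 CPM in CCN3 treated ventricles, against 6.16, 6.14 and 6.14 log2 CPM in PBS treated ventricles, and rose (Log2FC 0.26 ± 0.05 SE, adjusted p = 0.192). Rgs2, which speeds the shut-off of G proteins, had 5.74, 5.87 and 5.82 log2 CPM in CCN3 treated ventricles, against 6.06, 6.19 and 6.12 log2 CPM in PBS treated ventricles, and fell (Log2FC -0.32 ± 0.07 SE, adjusted p = 0.198). Heart muscle and vessel cells also express both genes. None of 15 measured chemokine-processing proteases and 23 glycosaminoglycan and adhesion genes passed. Nor did any of 5 chemokines or chemokine-like ligands under other symbols, Pf4 and Ppbp among them, or of 8 further receptors of chemoattractants. The lowest p in these lists belonged to Mmp14 (Log2FC 0.22, adjusted p = 0.347) and Furin (0.15, 0.439), to the syndecans Sdc3 (-0.14, 0.466) and Sdc4 (0.21, 0.470), to Rarres2 (-0.17, 0.634) and Mif (0.08, 0.839), and to Gpr35 (-0.17, 0.534) and Cmklr1 (-0.09, 0.774).

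Markers of the other cells of the ventricle were read beside these values. None of the measured markers of fibroblasts (7 of 7 measured), endothelial cells (6 of 6), dendritic cells (8 of 8) and B cells (4 of 5) passed. The Log2FC was positive for 4 fibroblast markers and negative for 3 (median 0.18), negative for 6 of 6 endothelial markers (median -0.09), evenly split among dendritic cell markers (median -0.04) and negative for 3 of 4 B cell markers (median -0.06). The lowest p in these lists belonged to Pdgfra (Log2FC 0.18, adjusted p = 0.412) and Tcf21 (0.18, 0.479) for fibroblasts, Kdr (-0.22, 0.345) and Egfl7 (-0.24, 0.550) for endothelium, Fscn1 (0.21, 0.552) and H2-Aa (-0.24, 0.692) for dendritic cells, and Cd79b (-0.15, 0.727) and Ms4a1 (-0.06, 0.884) for B cells. The cardiomyocyte gene Tnni3 (Log2FC -0.44, adjusted p = 0.177) and the pericyte gene Kcnj8 (-0.54, 0.119) fell, as 1 of 8 and 1 of 5 markers of their lists. Next in these lists came Pln (-0.45, 0.254) for cardiomyocytes and Rgs5 (-0.44, 0.257) for pericytes. The lists held both signs, with 4 positive and 4 negative cardiomyocyte markers (median -0.03), Ryr2 at 0.25 and Actc1 at 0.30 among them, and 2 positive and 3 negative markers of pericytes and smooth muscle (median -0.26), Pdgfrb at 0.13 and Cspg4 at 0.21 among them. The pericyte and smooth muscle list summed to between 958 and 1052 CPM in the CCN3 group and between 1190 and 1438 CPM in the PBS group. The part of these cells in the chemokine values was not tested.

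**Figure D5:**
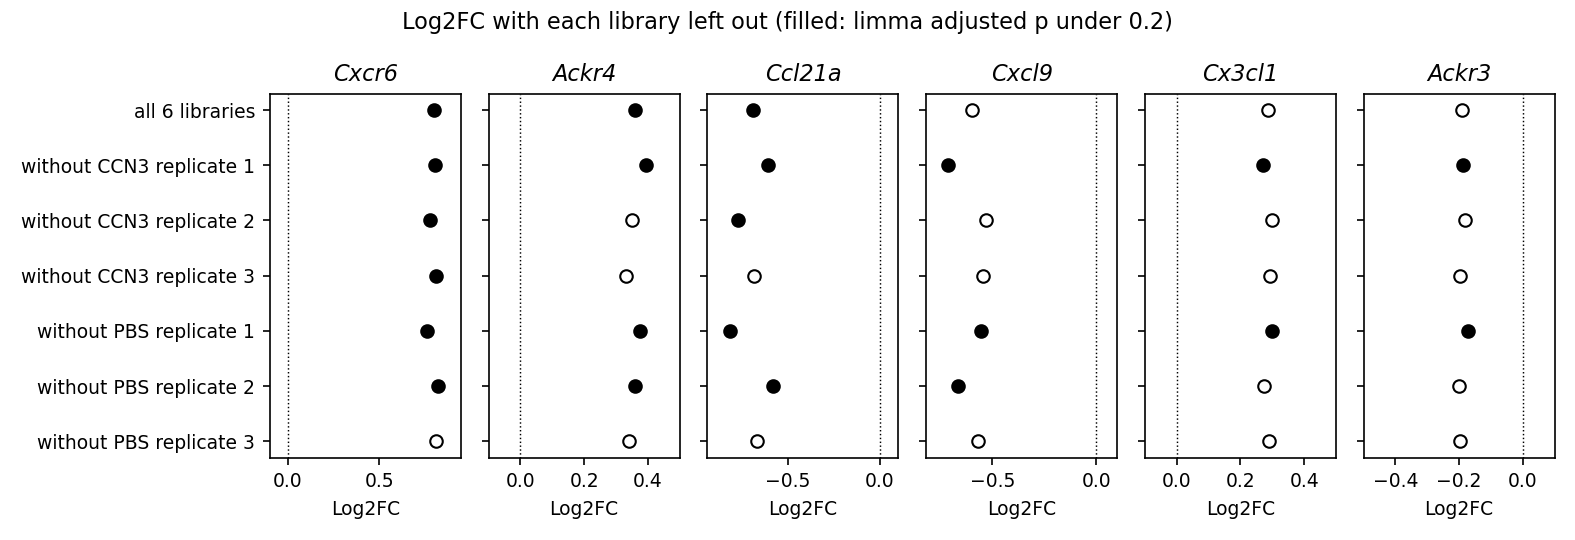
Log2FC (CCN3 minus PBS, log2 CPM) of 6 chemokine genes in the fit of all 6 libraries and with each library left out in turn, filled where the limma adjusted p is under 0.2. The sign was kept in every fit shown, while filled points changed with the library left out: Cxcr6 passed in 5 of the 6 reduced fits, Ccl21a in 4, and Ackr4 and Cxcl9 in 3.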

How the data were processed

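The data are bulk RNA sequencing of 6 left ventricle libraries at 4 dpi, 3 per group, with groups and replicate numbers as on the labels. From the processing notes of the submitters and the study's methods, the authors quantified stranded mRNA libraries with Salmon 1.4.0 against GRCm39, used edgeR, removed 2 factors of unwanted variation and deposited the result as log2 CPM. The low-count filter and prior count are not given in the sources used here. The authors also deposited a table of log2 fold changes, fold changes, p-values, false discovery rates and annotation terms, which was not used. Each of the 6 columns of values was mapped to a sample, and 0 were left over.

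All 15909 genes were fitted with limma 3.58.1 in R 4.3.3 (treatment, moderated with a mean-variance trend, two-sided, p adjusted by Benjamini-Hochberg over all genes). After group means were subtracted, values varied along only 2 of 4 dimensions, so the 2 empty directions (singular value under 1e-06 of the largest) entered the model, which left 2 residual degrees of freedom beside 4.469 from the prior. Any between-group part of the removed factors is not in the errors. The procedure was also run on simulated data drawn independently for each gene. These held no between-group part of removed factors, so they cannot show its effect on the calls. Values in every library were given for members that passed, for the 5 with the lowest p and the 3 with the highest level among ligands and among receptors, and for the partners of members that passed, and further members were named in groups by role. Values of 1 member, which is included in the counts, are not reported here. In other lists, genes that passed and those with the lowest p were named. Members and lists were chosen with earlier results of these data known, and the lists were not tested as sets.

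Positions, transcript lengths, promoters and coding sequences came from the GRCm39 genome with the GENCODE annotation, which matched 47 of 47 members to 1 position each. Promoters were placed by the start of the canonical transcript, and the letters of the motifs were settled after other forms had been searched.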

Additional observations from a re-analysis of the deposited data

How the results depend on the processing

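The 3 calls rest on 2 residual degrees of freedom and on the mean-variance trend. Without the trend 0 members passed (0 higher and 0 lower, with 0 ligands lower and 0 receptors higher), and over all genes 0 passed as higher and 1 as lower. With each library centred on its median 1 member passed as higher (1 receptor) and 0 as lower (0 ligands), and 104 genes in all as lower. Ccl11 then reversed to 0.00025, which is 0 within its error. With 1 CPM added before log2, 1 member passed as higher (1 receptor) and 1 as lower (Ccl21a), where 1.41% of all genes passed. With treatment alone, which counts the emptied directions as residual, 6 members were higher and 15 lower (3 and 11 ligands, 4 receptors lower), and 2138 and 2633 genes in all. These counts rise by the construction of the fit.

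Deviations from the group means correlated between same-numbered libraries at 0.127, 0.968 and -0.977. These deviations varied along only 2 dimensions, so the correlations cannot show whether the replicate numbers pair the libraries. With a replicate block, 8 members were higher and 18 lower (3 and 13 ligands, 5 and 5 receptors), and 2686 and 3246 genes in all. This fit did not hold the 2 empty directions, so they can enter its residuals, and 37.3% of all genes passed. Its counts are therefore not read as a gain from pairing.

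With each library left out in turn, 0 to 4 members passed as higher and 0 to 8 as lower (0 to 1 and 0 to 6 ligands, 0 to 3 and 0 to 2 receptors), and 22 to 951 genes in all as higher and 28 to 1268 as lower. The sign was kept in all 6 fits by 36 of 47 members. The 11 others ranged between -0.17 and 0.33 (Ackr1), -0.11 and 0.12 (Ccl11), -0.18 and 0.33 (Ccl2), -0.51 and 0.053 (Ccl22), -0.18 and 0.20 (Ccl7), -0.14 and 0.31 (Cxcl1), -0.22 and 0.25 (Cxcl10), -0.21 and 0.13 (Cxcl2), -0.23 and 0.15 (Cxcl5), -0.046 and 0.37 (Cxcr2), and -0.11 and 0.23 (Cxcr3). A filter at a mean of at least 1 log2 CPM kept 33 members and the same 3 calls.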
